A study of Homo sapiens with 9 samples.

Results

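The genes described here are 9 components of TGF-beta and activin signalling, chosen by symbol from the 63657 rows of a gene expression table of MDA-MB-231 cells: the activin subunit genes INHBA and INHBB, the ligand genes TGFB1 and TGFB2, the receptor genes TGFBR1 and TGFBR2, the signal transducer SMAD3, its inhibitor SMAD7, and the activin antagonist FST. All 9 were found by their Ensembl identifiers, and all 9 passed the filter of a mean of 1 FPKM or more (fragments per length of transcript and sequencing depth) over the 4 RNA libraries, as did 16987 genes in all. The libraries were 2 from MDA-MB-231 cells infected with a short hairpin RNA (shRNA) against LOXL2 (shLOXL2) and 2 from MDA-MB-231 cells with a control shRNA (shControl). MDA-MB-231 is a long-established human breast cancer cell line that lacks oestrogen and progesterone receptors and has a mesenchymal form, and LOXL2 is a lysyl oxidase-like enzyme that the study connects with oxidation of histone H3. The labels give neither the number of hairpins nor the time after infection, and nothing says that the replicates are separate cultures. The p-values therefore measure only the spread between these libraries, which may be technical.

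TGF-beta and activin are secreted dimers of one protein family. TGF-beta is released in a latent complex and, once freed, binds TGFBR2, which recruits and phosphorylates TGFBR1. Activins, built from INHBA or INHBB chains, use the activin receptors in the same manner, and both routes phosphorylate SMAD2 and SMAD3, which enter the nucleus with SMAD4 and bind DNA. SMAD7 blocks the receptors, follistatin (FST) traps activin outside the cell, and in breast cancer the pathway is known for both growth arrest and for invasion and metastasis.

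LOXL2 (ENSG00000134013) itself stood at 15.2 and 12.1 FPKM in the shLOXL2 libraries and at 85.5 and 84.5 FPKM in the shControl libraries, so that the shLOXL2 mean was 16.1% of the shControl mean. All 8 markers listed for the cell line reached a mean of 1 FPKM. The mesenchymal filament gene VIM stood at 2104 and 2081 FPKM in shLOXL2 and 2011 and 2053 FPKM in shControl. By the limma test described below, 2 of these 8 markers rose (25.0%) and 2 fell (25.0%), beside 8.35% and 8.54% of all tested genes. The oestrogen receptor gene ESR1 was at most 0.0822 FPKM and the progesterone receptor gene PGR at most 0.0362 FPKM in any library. The 7 luminal genes listed summed to 13.7 and 12.8 FPKM in shLOXL2 and 12.5 and 14.5 FPKM in shControl. Nearly all of that sum came from the 4 luminal genes with a mean of 1 FPKM or more. Of these 4, 2 had a positive and 2 a negative log2 change, and 0 rose and 1 fell (25.0%). The 9 haematopoietic markers summed to 151.1 and 147 FPKM in shLOXL2 and 139 and 150.02 FPKM in shControl, nearly all from CD68. FPKM holds no read count, so depth is unknown. Ratios of FPKM between libraries were taken over 2019 long non-coding RNA genes above 0 in all 4 libraries. The commonest ratio was 1.10 for shLOXL2 replicate 1 over shControl replicate 1, in 72 genes. It was 1.06 for shLOXL2 replicate 1 over replicate 2 (79 genes) and 0.985 for shControl replicate 1 over replicate 2 (62 genes). Whether these ratios reflect depth was not tested. In bulk RNA, fewer cells that express a gene and less RNA per cell cannot be told apart.

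With LOXL2 depleted, the activin beta B subunit gene INHBB, the type I receptor gene TGFBR1 and SMAD3 rose, and the type II receptor gene TGFBR2 fell. INHBA, TGFB1, TGFB2, SMAD7 and FST did not pass the threshold (limma on log2(FPKM + 1), Benjamini-Hochberg adjusted p below 0.05). Thus 3 of the 9 genes rose (33.3%) and 1 fell (11.1%), beside 8.35% of all tested genes that rose, 8.54% that fell and 16.9% called in either direction. Among tested protein-coding genes 10.4% rose and 10.4% fell. The 9 genes and the pathway lists below were chosen with earlier results of these data known. Shares of called genes, here and below, are therefore descriptions and do not test a set. Non-overlapping groups were seen in 6 of the 9 genes (66.7%), a share near the 64.6% of all tested genes and the 72.0% of tested protein-coding genes. When libraries were scaled to the same FPKM sum, the median of all genes moved to -0.12 on the log2 scale and the calls over all genes split as 823 that rose and 2978 that fell, against 1419 and 1450 without that scaling. Relative to that median the log2 changes of the 9 genes ran from -0.73 for TGFBR2 to 1.66 for INHBB. A fall called under this scaling, here or below, includes that shift of the median. The FPKM sums were 1330441 and 1369375 in shLOXL2 and 1244377 and 1221571 in shControl. Within them the mitochondrial tRNA gene MT-TP held 93310 and 100600 FPKM in shLOXL2 and 72410 and 70680 FPKM in shControl.

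**Figure D1:**
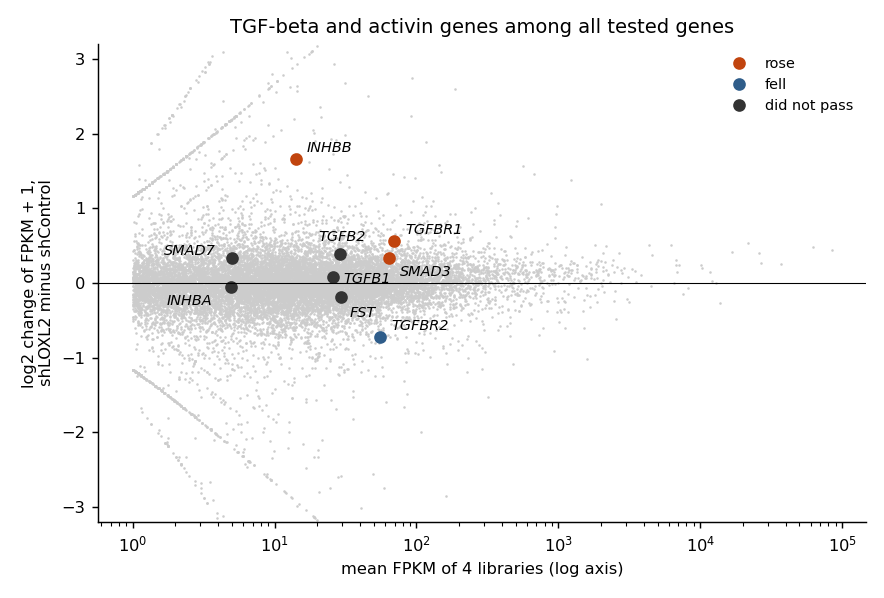
Log2 change of FPKM + 1 (shLOXL2 minus shControl) of 16987 tested genes against their mean FPKM over 4 libraries on a log axis, with the 9 TGF-beta and activin genes marked. INHBB lies above most grey points at its level and TGFBR2 below most at its own, while INHBA, TGFB1 and FST lie near 0. Of the tested genes, 76 fall outside the vertical axis and 1156 are listed at 0 in at least 1 library.

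INHBB (ENSG00000163083) encodes the beta B chain, which forms activin B as a homodimer. It stood at 23.2 and 20.9 FPKM in shLOXL2 and at 6.51 and 6.06 FPKM in shControl, so that both shLOXL2 libraries lay far above both shControl libraries. The means were 22.04 ± 1.595 FPKM in shLOXL2 and 6.29 ± 0.320 FPKM in shControl (SD, n = 2 each), a 3.50-fold difference. The log2 change was 1.66 ± 0.07 (SE, 95% interval 1.44 to 1.88, limma adjusted p = 0.0124), and INHBB ranked 250 by size among the genes with a positive change. With 1 library left out, whichever of the 4 it was, INHBB kept a log2 change of 1.59 to 1.73 and lost its call (limma adjusted p from 0.0885 to 0.144), in fits with 1 residual degree of freedom.

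INHBA (ENSG00000122641) encodes the beta A chain, the subunit of activin A. It was at 4.51 and 5.17 FPKM in shLOXL2 and at 5.22 and 4.87 FPKM in shControl, and the groups overlapped. Its log2 change was -0.05 ± 0.09 (SE, 95% interval -0.32 to 0.21, limma adjusted p = 0.712). The activin subunits together amounted to 27.7 and 26.1 FPKM in shLOXL2 and to 11.7 and 10.9 FPKM in shControl. INHBB made up 83.7% and 80.2% of that sum in shLOXL2 and 55.5% and 55.4% in shControl. The ratio of INHBB to INHBA within a library was 5.14 and 4.04 in shLOXL2 and 1.25 and 1.24 in shControl (two-sided exact permutation test, p = 0.333, the smallest that 2 against 2 libraries can give). INHA, whose product pairs with either beta chain to make inhibin, was at most 0.162 FPKM in any library.

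The upstream regions of these paired subunit genes are shown because one gene changed and the other did not. Each is the 250 bases before the gene's start, from RefSeq on GRCh38.p14, read 5′ to 3′ on the gene's strand. Capitals mark matches on either strand to the motifs searched. The letters of a GC box, where factors of the Sp family bind, were taken as GGGCGG. A SMAD element, which SMAD3 and SMAD4 can bind, was searched for with the letters CAGAC. An AP-1 element, to which dimers of Fos and Jun proteins bind, was given by the letters TGANTCA. For the TATA box of core promoters the search used TATAAA.
INHBB, chr2:120345886-120346135, plus strand: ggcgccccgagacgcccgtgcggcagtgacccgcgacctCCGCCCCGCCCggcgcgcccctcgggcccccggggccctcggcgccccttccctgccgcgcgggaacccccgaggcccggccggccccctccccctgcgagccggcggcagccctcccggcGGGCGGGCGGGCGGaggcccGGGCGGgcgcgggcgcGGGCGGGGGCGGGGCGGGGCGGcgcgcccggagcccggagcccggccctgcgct
INHBA, chr7:41703091-41703340, minus strand: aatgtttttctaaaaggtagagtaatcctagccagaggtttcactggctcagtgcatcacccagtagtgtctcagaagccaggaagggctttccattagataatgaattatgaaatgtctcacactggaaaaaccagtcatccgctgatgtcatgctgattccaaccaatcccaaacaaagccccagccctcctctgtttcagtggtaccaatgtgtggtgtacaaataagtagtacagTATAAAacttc
The INHBB window was 89.6% G and C and held 10 matches to GGGCGG, some of them overlapping, and none to the other letters searched. The INHBA window was 42.8% G and C and held 1 match, to TATAAA. Over the first-listed windows of 27305 genes the median was 58.0% G and C, 42.3% held GGGCGG at least once, 14.0% held it 3 or more times, 6.6% held TGANTCA and 11.1% held TATAAA. These are matches of letters, not sites shown to be bound.

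TGFB1 (ENSG00000105329) and TGFB2 (ENSG00000092969) encode the TGF-beta isoforms that these cells expressed most. TGFB1 stood at 24.2 and 28.6 FPKM in shLOXL2 and at 25.0 and 24.8 FPKM in shControl, with overlapping groups. Its log2 change was 0.08 ± 0.09 (SE, 95% interval -0.20 to 0.36, limma adjusted p = 0.609), and -0.05 when libraries were scaled to the same FPKM sum. TGFB2 stood at 32.5 and 33.2 FPKM in shLOXL2 and at 26.6 and 23.1 FPKM in shControl. Both shLOXL2 libraries were above both shControl libraries, and the spread between the shControl libraries was larger than that between the shLOXL2 libraries. The log2 change of TGFB2 was 0.39 ± 0.08 (SE, 95% interval 0.15 to 0.64, limma adjusted p = 0.0614). TGFB2 passed with a filter of a mean of 5 FPKM (limma adjusted p = 0.0393) and with protein-coding genes fitted alone (limma adjusted p = 0.00849). These fits called larger shares of all genes. At that filter 1560 rose and 1524 fell of 12023, and with protein-coding genes alone 2135 and 2177 of 11213, against 1419 and 1450 of 16987. A pass in these fits, here and below, is to be read beside those counts. Its antisense transcript TGFB2-AS1 was at 1.94 and 1.99 FPKM in shLOXL2 and at 1.67 and 1.79 FPKM in shControl, and no source used here says whether strand was used in counting. TGFB3, the third isoform, was low, at 0.743 and 0.992 FPKM in shLOXL2 and 1.77 and 1.48 FPKM in shControl (limma adjusted p = 0.135, and 0.0194 with protein-coding genes alone).

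**Figure D2:**
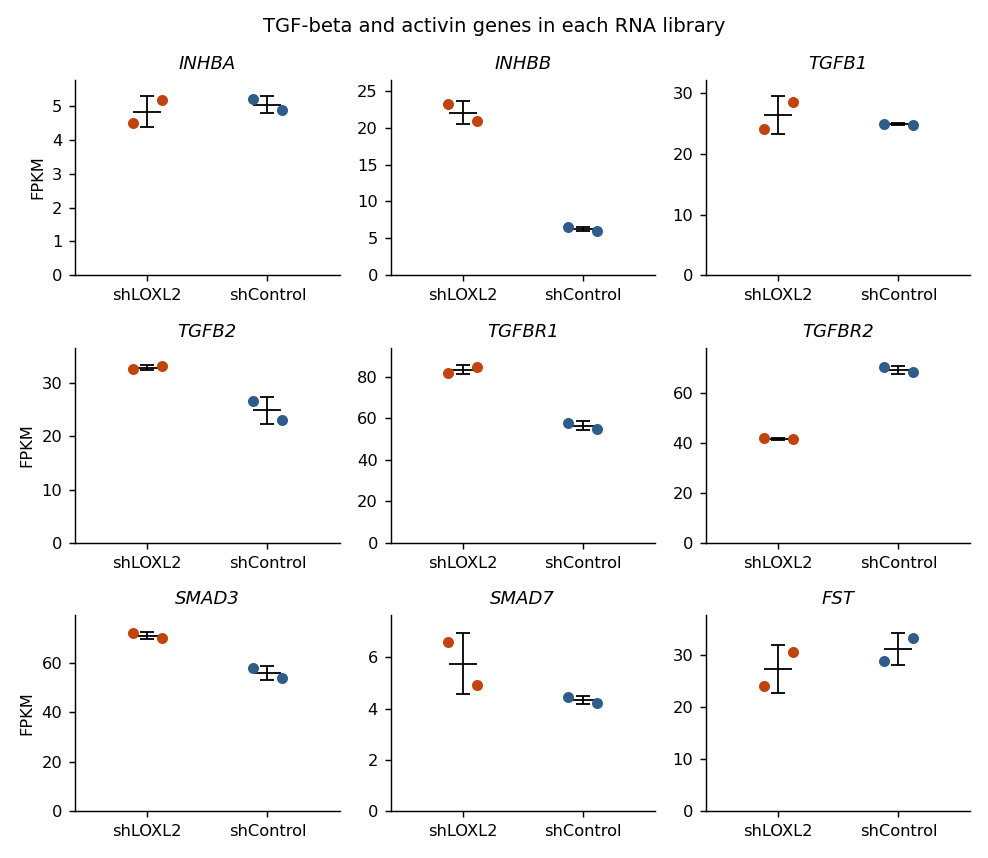
FPKM of each of the 9 genes in the 2 shLOXL2 libraries (left, orange) and the 2 shControl libraries (right, blue), with the mean as a bar and 1 SD as whiskers, on linear axes that start at 0. INHBB stands at 23.2 and 20.9 FPKM in shLOXL2 above 6.51 and 6.06 FPKM in shControl, TGFBR2 is lower in both shLOXL2 libraries, and INHBA, TGFB1 and FST overlap.

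The receptors moved in opposite directions. TGFBR1 (ENSG00000106799), the type I kinase that phosphorylates SMAD2 and SMAD3, stood at 81.8 and 84.8 FPKM in shLOXL2 and at 57.8 and 54.8 FPKM in shControl. Its groups lay well apart, with means of 83.3 ± 2.11 FPKM in shLOXL2 and 56.3 ± 2.11 FPKM in shControl (SD, n = 2 each). The log2 change was 0.56 ± 0.04 (SE, 95% interval 0.42 to 0.69, limma adjusted p = 0.0163). TGFBR2 (ENSG00000163513), the kinase that binds the ligand, stood at 41.9 and 41.4 FPKM in shLOXL2 and at 70.4 and 68.2 FPKM in shControl. It fell to 60.1% of its control mean, with little spread in either group. The log2 change was -0.72 ± 0.03 (SE, 95% interval -0.82 to -0.62, limma adjusted p = 0.0124). TGFBR1 thus exceeded TGFBR2 1.95-fold and 2.05-fold in shLOXL2, while the same ratio was 0.821 and 0.804 in shControl (two-sided exact permutation test, p = 0.333, the smallest possible here). With any 1 of the 4 libraries left out both calls were lost, at limma adjusted p from 0.107 to 0.158 for TGFBR1 and from 0.0952 to 0.121 for TGFBR2, while the log2 changes ran from 0.52 to 0.59 and from -0.74 to -0.70.

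**Figure D3:**
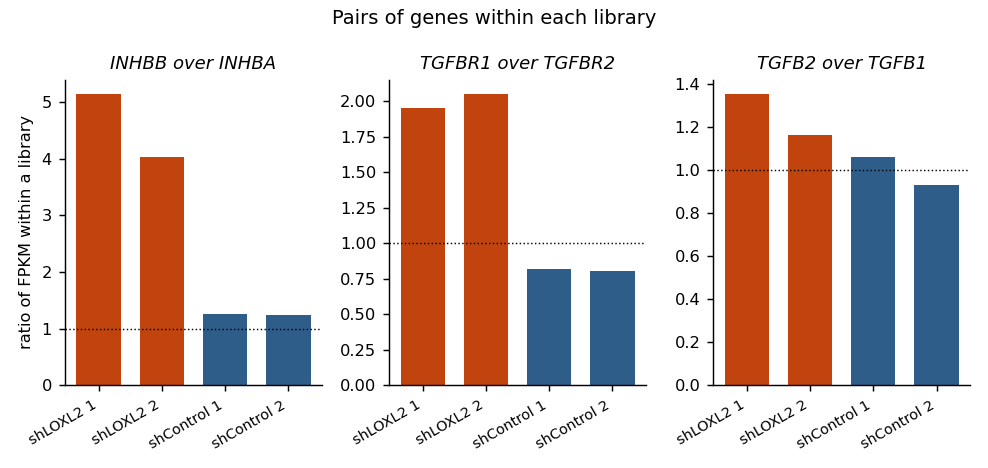
Ratio of FPKM within each library for 3 pairs of genes, with the 2 shLOXL2 libraries in orange to the left of the 2 shControl libraries in blue and a dotted line at a ratio of 1. TGFBR1 over TGFBR2 is 1.95 and 2.05 in shLOXL2 and 0.821 and 0.804 in shControl, on opposite sides of the line, and INHBB over INHBA is above 4 in shLOXL2 and near 1.25 in shControl.

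The upstream regions of the receptor genes, which changed in opposite directions, are set side by side on the same build, with the same capitals. RefSeq lists 8 starts for TGFBR1, of which the first is printed, and 2 starts for TGFBR2, whose windows overlap by 5 bases and are both printed.
TGFBR1, chr9:99104863-99105112, plus strand: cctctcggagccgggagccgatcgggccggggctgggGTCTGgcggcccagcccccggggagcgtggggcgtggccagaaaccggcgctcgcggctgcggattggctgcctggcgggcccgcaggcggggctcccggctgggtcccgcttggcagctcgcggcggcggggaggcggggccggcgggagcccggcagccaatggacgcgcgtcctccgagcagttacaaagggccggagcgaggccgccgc
TGFBR2 first start, chr3:30606106-30606355, plus strand: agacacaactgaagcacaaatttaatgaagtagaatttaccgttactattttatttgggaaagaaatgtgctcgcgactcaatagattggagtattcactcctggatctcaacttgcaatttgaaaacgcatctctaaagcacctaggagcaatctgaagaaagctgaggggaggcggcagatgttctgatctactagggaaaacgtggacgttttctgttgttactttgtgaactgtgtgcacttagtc
TGFBR2 second start, chr3:30606351-30606600, plus strand: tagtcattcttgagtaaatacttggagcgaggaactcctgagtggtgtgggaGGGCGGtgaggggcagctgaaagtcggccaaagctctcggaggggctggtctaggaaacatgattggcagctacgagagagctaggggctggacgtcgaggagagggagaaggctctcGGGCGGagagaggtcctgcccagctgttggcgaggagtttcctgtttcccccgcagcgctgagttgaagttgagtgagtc
The TGFBR1 window was 79.6% G and C with 1 match, to CAGAC, a motif in 37.8% of all first-listed windows. The TGFBR2 windows were 40.8% and 58.4% G and C and held 0 and 2 matches to GGGCGG. Which start these cells use was not tested.

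Among the other receptors, 2 rose. TGFBR3, which encodes betaglycan, a co-receptor that presents TGF-beta and binds inhibin, stood at 7.51 and 8.27 FPKM in shLOXL2 and at 4.34 and 3.43 FPKM in shControl (log2 change 0.87 ± 0.12, SE, limma adjusted p = 0.0334). ACVR2B, a type II receptor for activin, stood at 7.23 and 7.59 FPKM in shLOXL2 and at 4.36 and 3.96 FPKM in shControl (log2 change 0.71 ± 0.07, SE, limma adjusted p = 0.0209). The type I activin receptor gene ACVR1B averaged 4.61 ± 0.170 FPKM in shLOXL2 and 5.27 ± 0.0874 FPKM in shControl, and the type II receptor gene ACVR2A 5.04 ± 0.0983 and 5.59 ± 0.181 FPKM (SD, n = 2), and neither passed (limma adjusted p = 0.166 and 0.232). In all, 3 of the 11 receptor genes tested rose (27.3%) and 1 fell (9.09%), beside 8.35% and 8.54% of all tested genes, with a median log2 change of 0.0057, against -0.0041 over all tested genes. The call of TGFBR3 and that of ACVR2B were lost without a filter on low values (limma adjusted p = 0.0802 and 0.055).

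SMAD3 (ENSG00000166949), the transducer that binds DNA after receptor activation, stood at 72.1 and 70.1 FPKM in shLOXL2 and at 58.1 and 54.1 FPKM in shControl. Both shLOXL2 libraries were above both shControl libraries, by a smaller margin than for the receptors. The log2 change was 0.34 ± 0.05 (SE, 95% interval 0.19 to 0.49, limma adjusted p = 0.0353). That call was lost without a filter on low values (limma adjusted p = 0.0725), with libraries scaled to the same FPKM sum (0.0686), without an intensity trend in the variance (0.0582), and with any 1 of the 4 libraries left out (0.143 to 0.176). Its partner SMAD2 averaged 63.9 ± 3.21 FPKM in shLOXL2 and 58.0 ± 0.351 FPKM in shControl, and the shared SMAD4 56.7 ± 0.183 FPKM in shLOXL2 and 62.5 ± 0.109 FPKM in shControl (SD, n = 2). Neither SMAD2 nor SMAD4 passed (limma adjusted p = 0.149 and 0.061), although SMAD4 passed with protein-coding genes alone (0.0451) and with equal FPKM sums (0.0236). The log2 change of SMAD4 was -0.27 with equal FPKM sums, where the all-gene median was -0.12, and -0.14 without that scaling. Of 13 SMADs, anchors and co-regulators tested, 1 rose (SMAD3) and 1 fell, 7.69% each, shares slightly below the 8.35% and 8.54% of all tested genes. The gene that fell was TGFBRAP1, a receptor-associated protein, at 4.20 and 4.24 FPKM in shLOXL2 and 6.88 and 6.64 FPKM in shControl (log2 change -0.57 ± 0.06, SE, limma adjusted p = 0.0199, and 0.0564 without a filter on low values).

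**Figure D4:**
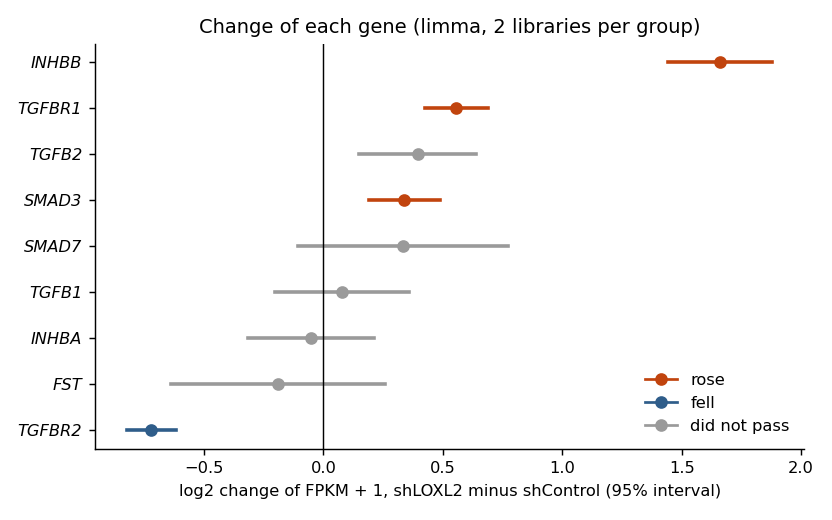
Log2 change of FPKM + 1 (shLOXL2 minus shControl) of the 9 genes, as points with their 95% intervals from limma (2 libraries per group), sorted by size. The intervals of INHBB, TGFBR1, SMAD3, TGFB2 and TGFBR2 leave out 0, and TGFB2, with an adjusted p of 0.0614, did not pass over all tested genes.

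SMAD7 (ENSG00000101665), the inhibitory SMAD that TGF-beta itself induces, stood at 6.596 and 4.92 FPKM in shLOXL2 and at 4.45 and 4.21 FPKM in shControl. The groups did not overlap, but the shLOXL2 libraries differed from each other by more than the lower of them differed from shControl. The log2 change was 0.33 ± 0.15 (SE, 95% interval -0.11 to 0.77, limma adjusted p = 0.22), with 0.15 without shLOXL2 replicate 1 and 0.51 without shLOXL2 replicate 2. Of all 24 intracellular inhibitors tested, 4 rose (16.7%) and 1 fell (4.17%), beside 8.35% and 8.54% of all tested genes. TGIF1, a repressor that binds SMADs, stood at 76.1 and 76.5 FPKM in shLOXL2 and at 56.1 and 56.9 FPKM in shControl (log2 change 0.43 ± 0.03, SE, limma adjusted p = 0.014). The ubiquitin ligase genes SMURF2 and SMURF1 rose as well, by a log2 change of 0.33 and 0.34 (limma adjusted p = 0.02 and 0.0405), as did the phosphatase gene CTDSP1 (0.24, adjusted p = 0.0466). SMURF2 shares sequence with its pseudogene SMURF2P1, which was at 1.51 FPKM in both shLOXL2 libraries and 2.97 and 3.35 FPKM in shControl, so that its value is uncertain to that extent. NEDD4L, a ligase that acts on activated SMAD2 and SMAD3, fell, at 172 and 171 FPKM in shLOXL2 and 194 and 197 FPKM in shControl (log2 change -0.18 ± 0.03, SE, limma adjusted p = 0.0386), and its log2 change was -0.31 with equal FPKM sums. Without a filter on low values the calls of SMURF1, CTDSP1 and NEDD4L were lost (limma adjusted p = 0.0875, 0.0888 and 0.0675), as they were without an intensity trend (0.058, 0.0728 and 0.0803). With equal FPKM sums SMURF1 (log2 change 0.22, limma adjusted p = 0.102) and CTDSP1 (0.11, adjusted p = 0.105) did not pass.

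FST (ENSG00000134363) encodes follistatin, which binds activin almost irreversibly. It stood at 24.1 and 30.6 FPKM in shLOXL2 and at 28.9 and 33.4 FPKM in shControl, with overlapping groups and a wide spread in both. The log2 change was -0.19 ± 0.15 (SE, 95% interval -0.64 to 0.26, limma adjusted p = 0.428). The ratio of FST to INHBB was 1.04 and 1.46 in shLOXL2 and 4.44 and 5.51 in shControl (two-sided exact permutation test, p = 0.333, the smallest possible here). Since FST itself did not pass, this ratio chiefly restates the rise of INHBB. FSTL3, a relative that also binds activin, averaged 5.47 ± 0.299 FPKM in shLOXL2 and 5.19 ± 0.0379 FPKM in shControl (SD, n = 2, limma adjusted p = 0.523). Of 9 extracellular antagonists tested, 0 rose and 1 fell (11.1%), beside 8.35% and 8.54% of all tested genes. The gene that fell was the secreted FSTL1, at 82.6 and 85.8 FPKM in shLOXL2 and 124 and 116 FPKM in shControl (log2 change -0.51 ± 0.05, SE, limma adjusted p = 0.0215). The pseudoreceptor gene BAMBI averaged 4.02 ± 0.122 FPKM in shLOXL2 and 5.55 ± 0.442 FPKM in shControl (SD, n = 2) and did not pass (limma adjusted p = 0.0605), although it did with equal FPKM sums (0.0351) and with protein-coding genes alone (0.0158).

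Ranked by FPKM, which is a level per length, the 9 genes in shLOXL2 ran from TGFBR1 (83.3 ± 2.11 FPKM) through SMAD3 (71.1 ± 1.46), TGFBR2 (41.7 ± 0.316), TGFB2 (32.9 ± 0.484), FST (27.3 ± 4.596), TGFB1 (26.4 ± 3.15), INHBB (22.04 ± 1.595) and SMAD7 (5.76 ± 1.18) to INHBA (4.84 ± 0.467 FPKM, SD, n = 2 each). In that order FST and TGFB1 overlapped, as did SMAD7 and INHBA. In shControl TGFBR2 led at 69.3 ± 1.57 FPKM, before TGFBR1 (56.3 ± 2.11) and SMAD3 (56.1 ± 2.79), which overlapped. FST (31.2 ± 3.15), TGFB1 (24.9 ± 0.149) and TGFB2 (24.9 ± 2.50) came next, with TGFB1 and TGFB2 overlapping, and INHBB (6.29 ± 0.320), INHBA (5.05 ± 0.247) and SMAD7 (4.33 ± 0.165 FPKM, SD, n = 2 each) were lowest.

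Apart from INHBB, 1 other ligand gene of the 10 tested rose. It was BMP4, a bone morphogenetic protein that signals through other SMADs, at 44.6 and 40.9 FPKM in shLOXL2 and 32.0 and 30.8 FPKM in shControl (log2 change 0.43 ± 0.06, SE, limma adjusted p = 0.0311). That call was lost without a filter on low values (limma adjusted p = 0.0671), with equal FPKM sums (0.0606) and without an intensity trend (0.051). The other 22 ligand genes of the family listed had a mean below 1 FPKM, with 0.877 FPKM as the highest value in any library.

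Of 16 genes tested that store and release TGF-beta, 3 rose (18.8%) and 2 fell (12.5%), beside 8.35% and 8.54% of all tested genes. THBS1, whose product thrombospondin 1 can free TGF-beta from its latent complex, stood at 167 and 163 FPKM in shLOXL2 and at 505 and 447 FPKM in shControl (log2 change -1.52 ± 0.07, SE, limma adjusted p = 0.0124). ITGAV, the alpha V chain of integrins that pull on the latent complex, fell too, at 22.8 and 25.96 FPKM in shLOXL2 and 42.2 and 37.0 FPKM in shControl (log2 change -0.68 ± 0.10, SE, limma adjusted p = 0.0361). MMP14, a membrane-bound matrix metalloproteinase, rose, at 299 and 276 FPKM in shLOXL2 and 188 and 193 FPKM in shControl (log2 change 0.59 ± 0.05, SE, limma adjusted p = 0.0182). The proteinase gene BMP1 (log2 change 0.50, limma adjusted p = 0.0218) and the integrin chain gene ITGB1 (0.41, adjusted p = 0.0188) rose as well. Without a filter on low values ITGAV and BMP1 did not pass (limma adjusted p = 0.0802 and 0.0528), nor did ITGAV without an intensity trend (0.054). ITGB1 is uncertain, since its pseudogene ITGB1P1 stood at 172 and 181 FPKM in shLOXL2 and 135 and 131 FPKM in shControl and may share its reads. FURIN, the protease that cuts TGF-beta and activin precursors, averaged 8.23 ± 1.25 FPKM in shLOXL2 and 12.2 ± 1.21 FPKM in shControl (SD, n = 2) and did not pass (limma adjusted p = 0.0863), although it did with protein-coding genes alone (0.0136).

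Of 42 genes tested that are known as TGF-beta targets, 6 rose (14.3%) and 9 fell (21.4%), beside 8.35% and 8.54% of all tested genes, with a median log2 change of -0.042 beside -0.0041 over all tested genes. The list was not divided by the direction in which TGF-beta moves each gene. Its counts and median therefore do not measure pathway output, which was not tested. The cytokine gene IL11 fell most among the 9, at 26.2 and 28.8 FPKM in shLOXL2 and 60.6 and 65.6 FPKM in shControl (log2 change -1.17 ± 0.07, SE, limma adjusted p = 0.0131). CCN2, the connective tissue growth factor gene, stood at 63.6 and 64.1 FPKM in shLOXL2 and at 91.9 and 98.3 FPKM in shControl (limma adjusted p = 0.0167). Other falls included the matrix enzyme gene LOX (log2 change -0.86), the BMP-responsive ID3 (-0.95), the cell cycle inhibitor gene CDKN1A (-0.48), the basement membrane collagen gene COL4A2 (-0.51), SNAI2 (-0.49), a transcription factor of mesenchymal cells, and IGFBP3 (-0.49), with limma adjusted p from 0.0134 for CDKN1A to 0.0424 for ID3. The calls of SNAI2, ID3 and IGFBP3 were lost without a filter on low values (limma adjusted p = 0.08, 0.0935 and 0.0899), and those of ID3 and IGFBP3 without an intensity trend (0.0602 and 0.0586).

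The 6 target genes that rose included other matrix and early response genes. KLF10, an early TGF-beta response factor, stood at 35.8 and 36.8 FPKM in shLOXL2 and at 28.8 and 28.2 FPKM in shControl (limma adjusted p = 0.0228). COL1A1 (log2 change 0.69) and FN1 (0.45), genes of collagen I and fibronectin, the fibronectin receptor chain gene ITGA5 (0.44), the angiogenic factor gene VEGFA (0.38) and TGIF1 (0.43) also rose, with adjusted p from 0.014 for TGIF1 to 0.031 for FN1. Without a filter on low values COL1A1, FN1, ITGA5 and VEGFA, 4 of these 6 genes, did not pass (limma adjusted p = 0.0714, 0.0672, 0.0586 and 0.0528). With equal FPKM sums FN1 (0.0635) and ITGA5 (0.0511) did not pass, nor did FN1 without an intensity trend (0.0515). COL1A1 is also a fibroblast marker, and the 11 fibroblast markers summed to 15.0 and 11.3 FPKM in shLOXL2 and to 7.90 and 9.25 FPKM in shControl. Of these, 3 reached a mean of 1 FPKM and COL1A2 was at most 0.0621 FPKM; their part in the result was not tested. TGFBI, named for its induction by TGF-beta, averaged 17.2 ± 0.872 FPKM in shLOXL2 and 17.2 ± 0.570 FPKM in shControl (SD, n = 2, limma adjusted p = 0.985). PMEPA1 and SKIL, feedback inhibitors that SMADs induce, averaged 22.3 ± 0.714 and 16.3 ± 1.07 FPKM in shLOXL2, and 24.2 ± 2.01 and 21.0 ± 1.02 FPKM in shControl (SD, n = 2), and neither passed (limma adjusted p = 0.374 and 0.0569). SKIL passed with a filter of a mean of 5 FPKM (limma adjusted p = 0.0367), with equal FPKM sums (0.0408) and with protein-coding genes alone (0.0112).

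**Figure D5:**
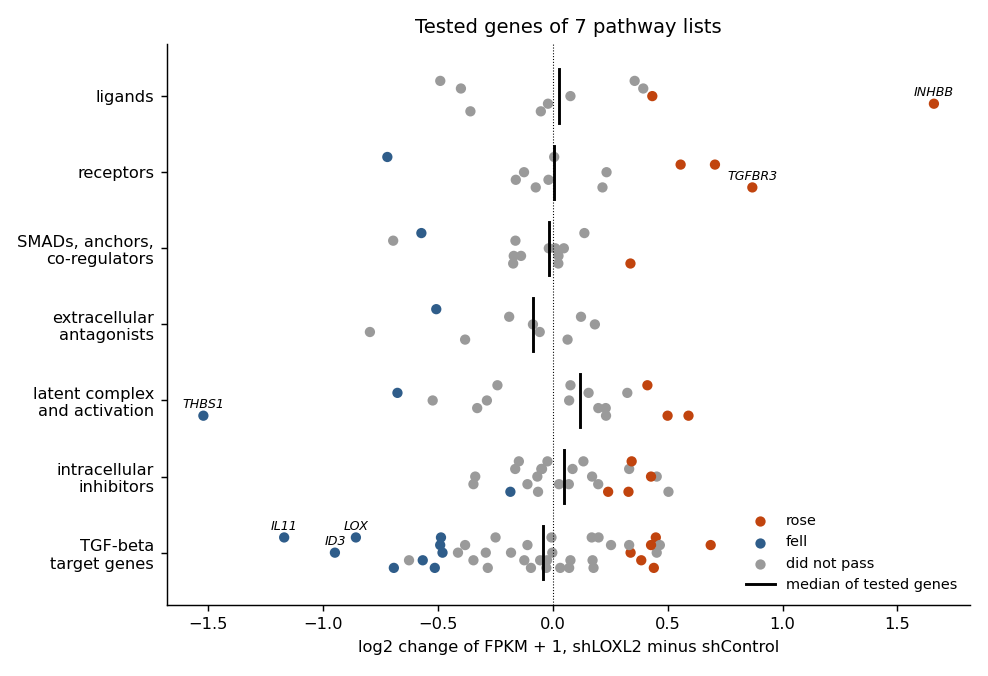
Log2 change of FPKM + 1 (shLOXL2 minus shControl) of the tested genes of 7 pathway lists, 1 point per gene, with orange for genes that rose, blue for genes that fell, grey for genes that did not pass, and a black line at each list's median. Medians lie close to 0, between -0.087 for the extracellular antagonists and 0.12 for the latent complex and activation list, and called genes lie on both sides in all lists but the ligands and the extracellular antagonists.

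Counting each gene once, the 7 lists held 117 tested genes, of which 18 rose (15.4%) and 15 fell (12.8%), where 8.35% and 8.54% of all tested genes and 10.4% and 10.4% of tested protein-coding genes did. Without a filter on low values the counts were 7 and 9, where 601 rose and 542 fell of all 36224 genes fitted. With protein-coding genes fitted alone they were 30 and 29, where 2135 rose and 2177 fell of all 11213 genes fitted. In fits with 1 library left out, whichever it was, 0 of the listed genes rose and at most 1 fell.

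Among other protein-coding genes with an unshared symbol and a mean of 5 FPKM or more, the profiles nearest to INHBB across the 4 libraries were those of CTSD (the protease cathepsin D), CSF1 (the macrophage growth factor) and SOX4 (a transcription factor). Their distances were 0.108, 0.113 and 0.141 on the log2 scale after centring, among 9230 genes. Genes of the mitochondrial genome and genes with clone or small-RNA names were left out. CTSD stood at 871 and 810 FPKM in shLOXL2 and at 284 and 281 FPKM in shControl, so its change resembled that of INHBB at a far higher level. The profiles nearest to TGFBR2 were those of GANAB, CLSPN and PGRMC1, at distances of 0.0194, 0.0323 and 0.0336. With only 4 libraries in 2 groups such likeness says little beyond the size of the difference between groups.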

How the data were processed

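The authors deposited a table of FPKM values with 1 row per gene and 1 column per RNA library. The submitters' processing notes name Bowtie, Cufflinks and GRCh37 without versions. Sample titles gave the groups and replicate numbers. Symbols were found for 52169 of 63657 Ensembl identifiers.

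Genes whose mean over the 4 libraries reached 1 FPKM (16987) were fitted with limma as log2(FPKM + 1), shLOXL2 minus shControl, with a variance trend on intensity. Tests were two-sided, with Benjamini-Hochberg adjustment over these genes and a threshold of 0.05. This scale understates changes of low genes. Depth is unknown from FPKM, and so is the counting error of low values. Alternatives covered the pseudocount, filter, scaling, variance prior, gene class, replicate block and each library left out.

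The 9 genes and the lists were chosen with earlier results of these data known. From each list up to 4 rises and up to 4 falls with the smallest p were named by rule. TGFB3, SMAD1, SMAD2, SMAD4, SMAD5, ACVR1B, ACVR2A, FSTL3, BAMBI, SKIL, FURIN, TGFBI, PMEPA1, ID1, CCN2, SNAI2, ID3, IGFBP3, COL1A1 and FN1 were named after their values were seen. Promoter windows came from RefSeq (GRCh38.p14). The series' 3 peak lists, on GRCh37, were not used here, and some genes are not reported here. Software was limma 3.58.1 in R 4.3.3, with scipy 1.17.1, pandas 2.3.3, numpy 2.4.6 and matplotlib 3.10.9 in Python 3.11.15.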

Additional observations from a re-analysis of the deposited data

How the results depend on the processing

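Pseudocounts of 0.1 and 5 FPKM, quantile normalization, upper-quartile scaling and a robust variance prior changed no call and no direction among the 9 genes. Over all 16987 genes tested, 1419 rose and 1450 fell. Without a filter on low values 601 and 542 of 36224 did, and with protein-coding genes alone 2135 and 2177 of 11213. With equal FPKM sums the counts were 823 and 2978, and without an intensity trend 926 and 1022. Among the listed pathway genes (18 rose, 15 fell) these were 7 and 9 without a filter and 30 and 29 with protein-coding genes alone, and 12 and 28 with equal FPKM sums. SMAD3 (log2 change 0.34) lost its call without a filter (adjusted p = 0.0725), without an intensity trend (0.0582) and, at 0.21, with equal FPKM sums (0.0686), and TGFB2 (0.39) passed at a filter of 5 FPKM (0.0393) and with protein-coding genes alone (0.00849). INHBA was not tested at that filter, since its mean lay below it. With equal FPKM sums TGFB1 turned to -0.049, FSTL3 to -0.046 and ID1 to -0.097, all above the all-gene median of -0.12 in that setting (TGFB1 by 0.071), and with quantile normalization TGFBI to 0.017.

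Deviations of same-numbered libraries from their group means were not correlated over the tested genes (correlation -0.0013). The sample titles do not say whether same-numbered libraries were prepared together, and this correlation cannot decide it. Adding the replicate number as a block left 1 residual degree of freedom, and 0 genes rose and 0 fell over all genes, the 9 genes and the pathway lists, with 5519 of all genes at an unadjusted p below 0.05. In that block fit INHBB (1.66, adjusted p = 0.0713), TGFBR1 (0.56, 0.0719), TGFBR2 (-0.72, 0.0713) and SMAD3 (0.34, 0.0749) did not pass. Nor did LOXL2, the gene targeted (-2.56, limma adjusted p = 0.0713, against 0.0124 without the block). With 1 library left out, where a lone library is assumed to vary like the other group, 18 to 220 of all genes rose and 70 to 217 fell, 0 of the 9 genes rose and 0 fell, and 0 listed genes rose and 0 to 1 fell. The log2 changes then ran from 1.59 to 1.73 for INHBB, 0.52 to 0.59 for TGFBR1, -0.74 to -0.70 for TGFBR2, 0.29 to 0.39 for SMAD3, 0.29 to 0.49 for TGFB2, -0.13 to 0.029 for INHBA, -0.041 to 0.19 for TGFB1, -0.051 to 0.046 for TGFBI and -0.093 to 0.16 for ID1. Of the 29 other named genes called in the full fit, 28 or 29 lost their call. LOXL2 is among these 29, and its log2 change ran from -2.72 to -2.41 in those fits. The causes were not tested.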

Other observations

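The bone morphogenetic protein branch of the family was also measured. SMAD1, 1 of its transducers, stood at 7.71 and 5.72 FPKM in shLOXL2 and at 11.3 and 11.5 FPKM in shControl, with no overlap (log2 change -0.70 ± 0.15, SE, limma adjusted p = 0.0643). SMAD1 passed with a filter of a mean of 5 FPKM (0.0439), with equal FPKM sums (0.048) and with protein-coding genes alone (0.00682). SMAD5, another transducer of this branch, stood at 48.0 and 48.4 FPKM in shLOXL2 and at 52.4 and 45.4 FPKM in shControl. Its groups overlapped (log2 change -0.018 ± 0.083, SE, limma adjusted p = 0.902). ID3, a target of this branch, stood at 12.4 and 13.4 FPKM in shLOXL2 and at 29.7 and 22.3 FPKM in shControl (limma adjusted p = 0.0424, lost without a filter on low values, 0.0935, and without an intensity trend, 0.0602). ID1, another target, stood at 76.5 FPKM in both shLOXL2 libraries and at 81.6 and 68.5 FPKM in shControl (limma adjusted p = 0.846). Whether the difference between ID1 and ID3 exceeds their spread was not tested.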
